A study of Mus musculus with 6 samples.

Results

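Matrix proteases, their inhibitors and the lysyl oxidases were examined in whole mouse lung after naphthalene, a compound that injures the conducting airway through its club cells. Members were all genes with a symbol of the Mmp, Timp, Adamts (with Adamtsl), Adam or Lox (with Loxl) series, each read from its brightest probe set with 1 annotated gene. There were 61 of them among the 16537 genes measured. The 6 arrays held 3 wild-type and 3 Falcor-null (Falcor-/-) samples by their labels, Falcor being a long non-coding RNA gene beside the transcription factor gene Foxa2. Every sample, controls included, carried the mixed strain label CD1_C57Bl6_mix and had received naphthalene. The labels put the wild-type samples 28, 29 and 30 days after it and the Falcor-null samples 31, 32 and 33 days after it, so day and genotype cannot be told apart. As the labelled day goes up by 1 with every sample, it is unknown whether these are true days. The sources used here do not say whether the samples were separate animals, so the p-values reflect the spread among these 6 samples and that spread may be technical.

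Matrix metalloproteinases (Mmp genes) are zinc enzymes that cut collagens, elastin and other matrix proteins, and the Timp proteins inhibit them. Adam proteins are membrane-anchored relatives that release growth factors and cytokines from cell surfaces, whereas the secreted Adamts enzymes cut proteoglycans, procollagens and other matrix proteins. Lysyl oxidases cross-link collagen and elastin. In lung, neutrophils and macrophages carry several of the Mmp enzymes, while mesenchymal, endothelial and epithelial cells make most of the others.

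All values are deposited log2 signals, and a difference is the arrays labelled Falcor-null minus wild type. Over all 24173 probe sets the array medians were 6.72, 6.74 and 6.72 in wild-type lung and 6.69, 6.70 and 6.70 under the Falcor-null label. The lowest signals, a single value per array, were 3.22, 3.22 and 3.19 against 2.32, 2.09 and 2.42. The lowest value thus differed between the groups, and whether the low end of the scale differed more widely was not tested. This limits any reading of members with low signals, although the 30th percentile lay between 5.72 and 5.74 on all 6 arrays. The Falcor probe set (gene symbol 9030622O22Rik) read 4.69, 5.01 and 5.45 in wild-type lung and 6.82, 6.34 and 6.32 under the Falcor-null label. It was thus higher, not lower, where the label says null (log2 difference 1.44, SE 0.21, limma adjusted p 0.0423). No source used here gives its position with respect to the altered stretch, and a probe set outside that stretch checks nothing, so every direction below rests on the labels. Markers of lung epithelium (Sftpc, Ager, Scgb1a1 and others) were present, their lists averaging 11.4 to 11.5 for alveolar and 8.87 to 9.27 for airway epithelium on the 6 arrays.

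None of the 61 members passed an adjusted p of 0.05 in limma over all 16537 genes, where 92 genes (0.556%) passed, 0.0968% higher and 0.46% lower. At an unadjusted p of 0.05, 15 members passed in limma (24.6%), 7 higher and 8 lower, beside 13.8% of all genes. Higher calls made up 6.11% and lower calls 7.65% of all genes at that threshold. The 2 groups of arrays did not overlap for 13 members (21.3%), 4 higher and 9 lower, beside 19.5% of all genes, 8.96% higher and 10.6% lower. The share of members without overlap was thus close to that of all genes. In size, 7 members (11.5%) differed by more than 0.5 on the log2 scale, against 3.83% of all genes. Members also varied more between arrays of 1 group than genes in general, with a median SD of 0.19 against 0.11 for wild type and 0.17 against 0.11 for the arrays labelled Falcor-null. The median difference was 0.04 over the members and 0.00 over all genes. By families, 10 of 16 Mmp genes were lower and 13 of 16 Adamts proteinases were higher, where 50.8% of all genes were higher. The difference was under 0.1 in size for 5 of these Mmp genes and 7 of these Adamts proteinases, and for 8193 of all 16537 genes. Without the first array labelled Falcor-null, 7 of 16 Mmp genes were lower, so that count rests on this array.

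**Figure D1:**
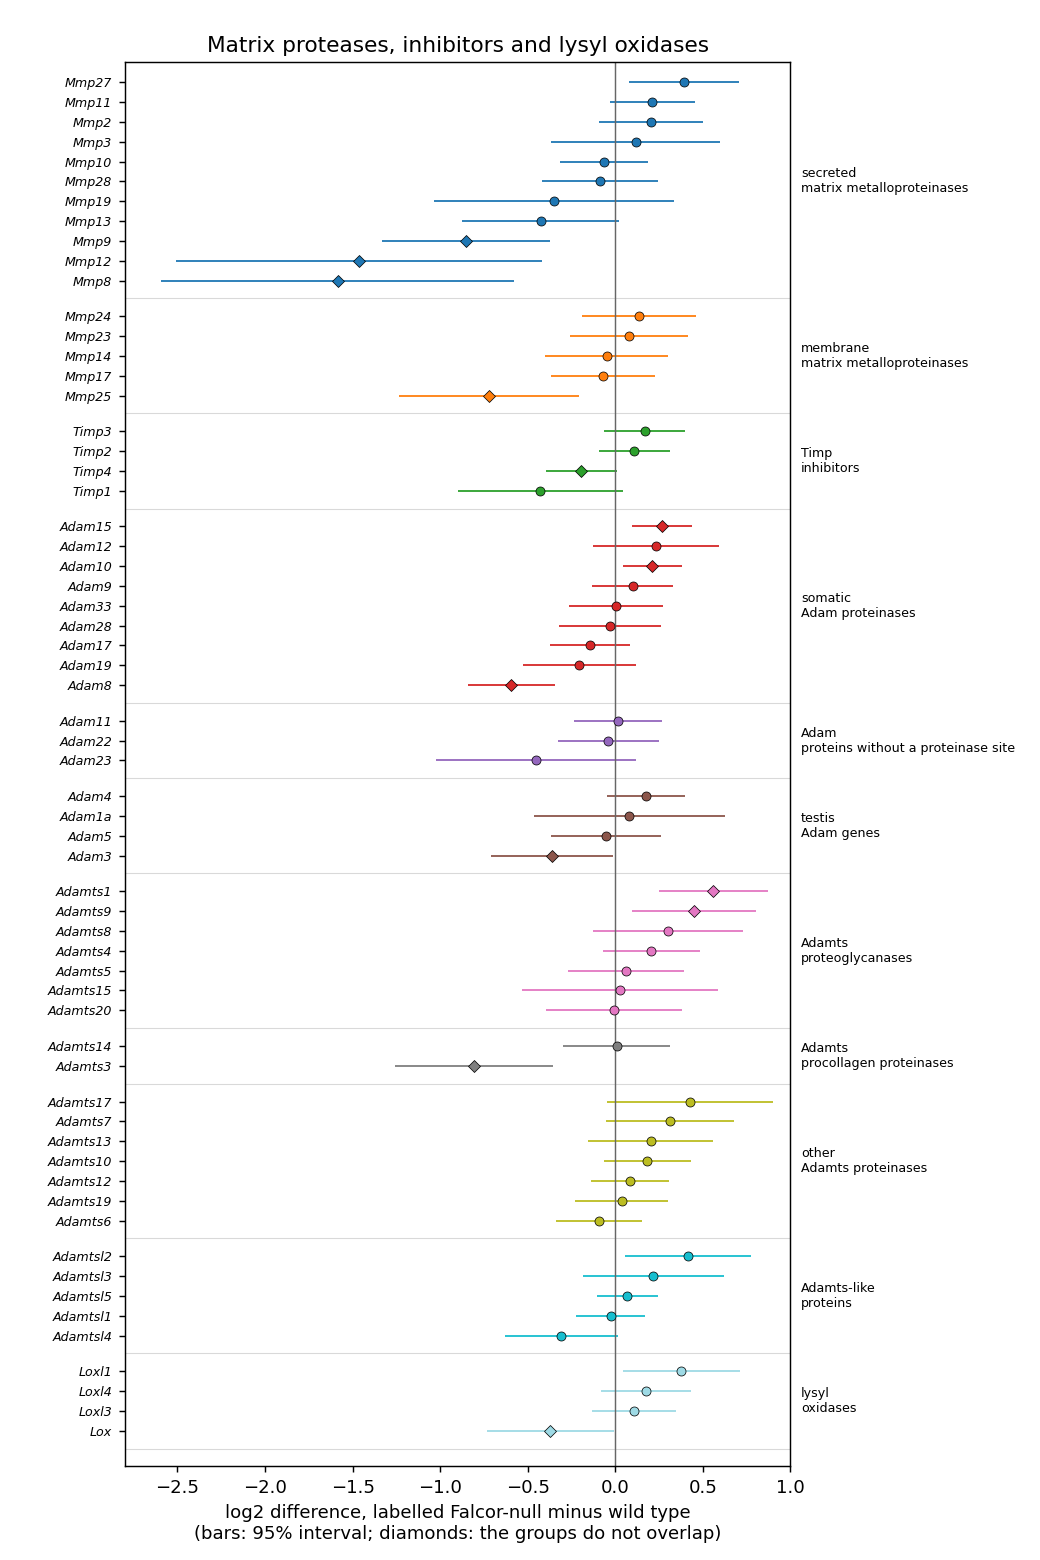
Log2 difference (the arrays labelled Falcor-null minus wild type, horizontal axis) of each of the 61 members, grouped by role, with bars for the 95% interval of the limma fit and diamonds for members whose groups did not overlap. The widest departures are Mmp8 at -1.58 and Mmp12 at -1.46, and the highest is Adamts1 at 0.56.

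Mmp8, Mmp9, Mmp12 and Mmp25, metalloproteinases known from leukocytes, were among the members with the most negative differences, although none passed the test. Mmp8, the collagenase that neutrophils store in granules, read 7.15, 7.21 and 8.38 in wild-type lung and 5.20, 6.64 and 6.15 under the Falcor-null label. The groups did not overlap, but the spread within each was wide (SD 0.69 and 0.73, n = 3 each). The difference was -1.58 (SE 0.43, 95% interval -2.59 to -0.58), with a limma adjusted p of 0.175. Mmp9, the gelatinase that neutrophils also store, read 7.24, 7.14 and 7.96 against 6.60, 6.50 and 6.69. The third wild-type array was the highest in both genes, and all 3 arrays labelled Falcor-null lay below all 3 wild-type arrays. For Mmp9 the difference was -0.85 (SE 0.21, 1.81-fold lower, limma adjusted p 0.133). Mmp25, a membrane-anchored metalloproteinase known from leukocytes, read 6.52, 6.12 and 7.04 against 5.83, 6.03 and 5.67, again with the third wild-type array highest. Its difference was -0.72 (SE 0.22, 1.65-fold lower, limma adjusted p 0.216).

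Mmp12, the elastin-cutting metalloproteinase of macrophages, had a different order of arrays. It read 8.47, 10.25 and 8.98 in wild-type lung and 7.68, 7.32 and 8.32 under the Falcor-null label, with the second wild-type array far above the others. The difference was -1.46 (SE 0.45, 95% interval -2.51 to -0.42, 2.76-fold lower, limma adjusted p 0.218). Without the second wild-type array it was -0.96 (limma adjusted p 0.335). Adam8, a sheddase of myeloid cells, had the smallest p of all members. Its values were 7.12, 6.97 and 7.31 in wild-type lung and 6.47, 6.52 and 6.63 under the Falcor-null label, a difference wider than the SD within either group (0.17 and 0.09, n = 3 each). The difference of -0.59 (SE 0.11, 1.51-fold lower) missed the threshold in limma with an adjusted p of 0.0748.

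**Figure D2:**
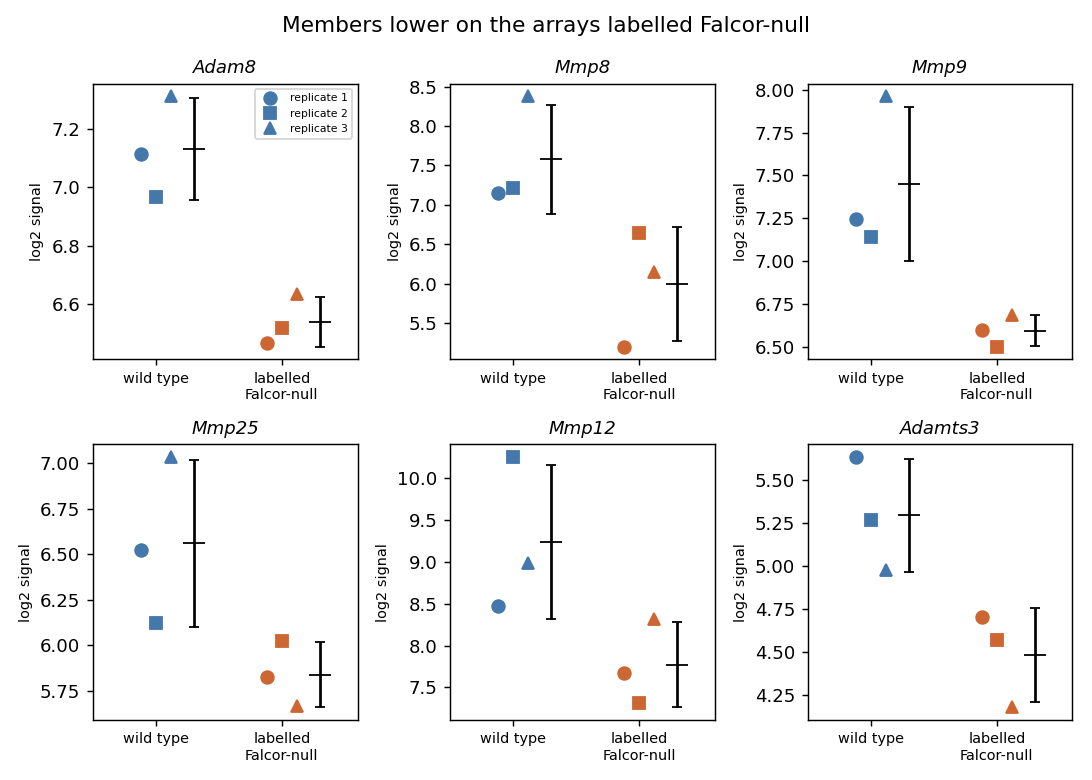
Log2 signal (vertical axis) of 6 members on each array, by group, with symbols for the replicate number and a bar for the mean and SD (n = 3). In each panel all 3 of the arrays labelled Falcor-null lie below all 3 wild-type arrays, and Mmp12 has its highest value, 10.25, on the second wild-type array.

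Markers of leukocytes, lymphocytes included, were lower on the same arrays. Neutrophil markers averaged 6.62, 6.67 and 7.36 in wild-type lung and 6.14, 6.36 and 6.26 under the Falcor-null label. The third wild-type array was thus the highest for this list, as it was for Mmp8, Mmp9 and Mmp25. That order was not particular to neutrophil markers. Among wild-type arrays the alveolar epithelial list was also highest on the third (11.41, 11.41 and 11.50). Of 11 neutrophil markers measured, 9 were lower, with a median difference of -0.82, and 3 had dim probe sets (mean signal under the 30th percentile of all probe sets). The decoy interleukin receptor gene Il1r2 was the only neutrophil marker to pass (difference -1.24, limma adjusted p 0.0383), and S100a8 gave -1.41 (limma adjusted p 0.180). Ltf (0.17) and Trem1 (0.09) were higher, while Mpo (-0.06) and Elane (-0.15) were only slightly lower. Ltf read 7.77, 8.17 and 6.95 in wild-type lung, so it was lowest, not highest, on the third array. Alveolar macrophage markers averaged 8.66, 9.19 and 9.03 against 8.09, 8.21 and 8.59, highest on the second wild-type array, as was Mmp12. All 13 measured were lower, with a median difference of -0.53, none had a dim probe set and none passed. Among them Chil3 gave -1.12 (limma adjusted p 0.0748) and the elastin-degrading protease Ctsk -1.35 (limma adjusted p 0.123). Monocyte and interstitial macrophage markers were lower in 11 of 12 cases (median difference -0.45, none passing, none dim). Their average was 8.42, 8.55 and 8.62 in wild-type lung, also highest on the third array, and ran from 8.08 to 8.21 under the Falcor-null label. B and plasma cell markers were lower in 11 of 11 cases (4 passing in limma, 2 dim, median difference -0.65). They averaged 7.94, 7.98 and 7.76 in wild-type lung, highest on the second array as Mmp12 was, and 6.93 to 6.99 under the Falcor-null label. T and NK cell markers were also lower in 11 of 11 cases (3 passing in limma, 2 dim, median difference -0.48), with averages of 7.08 to 7.27 against 6.43 to 6.60. No marker reads 0 on an array of this kind, and in whole lung fewer cells of a type and less RNA per cell cannot be told apart. The part of leukocyte content in the Mmp8, Mmp9, Mmp12, Mmp25 and Adam8 differences was not tested.

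**Figure D3:**
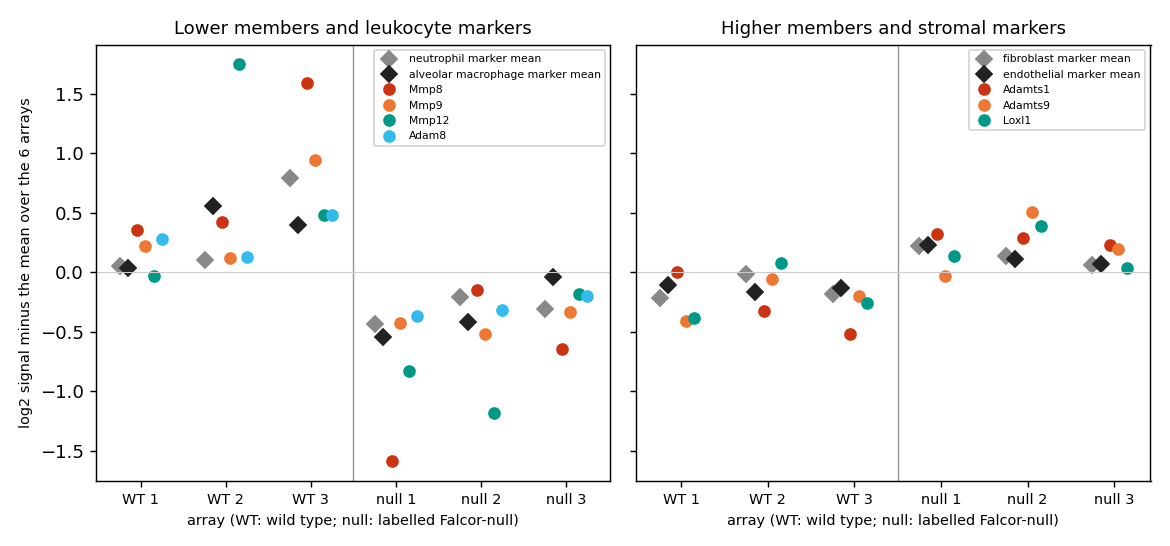
Log2 signal minus its mean over the 6 arrays (vertical axis) for members (circles) and for the mean of marker lists (diamonds) on each array; WT is wild type and null is the Falcor-null label. Mmp8 and Mmp9 are highest on wild-type array 3, as is the neutrophil marker mean (7.36 before its mean is subtracted). Mmp12 is highest on wild-type array 2, as is the alveolar macrophage marker mean (9.19 before subtraction). Lists not drawn share these orders: monocyte and interstitial macrophage markers are also highest on wild-type array 3, and B and plasma cell markers on wild-type array 2.

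Mmp8 and Mmp12 lie in a row of 10 neighbouring Mmp genes on chromosome 9, of which 6 were measured. Their order in the RefSeq annotation (GRCm38.p6) is Mmp13, Mmp12, Mmp1b, Mmp3, Mmp1a, Mmp10, Mmp8, Mmp27, Mmp20 and Mmp7. Mmp13, a collagenase, read 5.32, 4.70 and 4.79 in wild-type lung and 4.51, 4.78 and 4.25 under the Falcor-null label (difference -0.43, limma adjusted p 0.388), with overlapping groups. Mmp27 read 4.72, 5.12 and 4.74 against 5.38, 5.08 and 5.30 (difference 0.39, limma adjusted p 0.259), on the opposite side of 0 from its neighbour Mmp8. The stromelysins Mmp3 and Mmp10 lay between these, at 0.12 and -0.06. All 4 of these probe sets were dim, which limits any reading of Mmp3, Mmp10, Mmp13 and Mmp27. The fitted differences of the row had both signs, and the differences between neighbours were not tested.

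**Figure D4:**
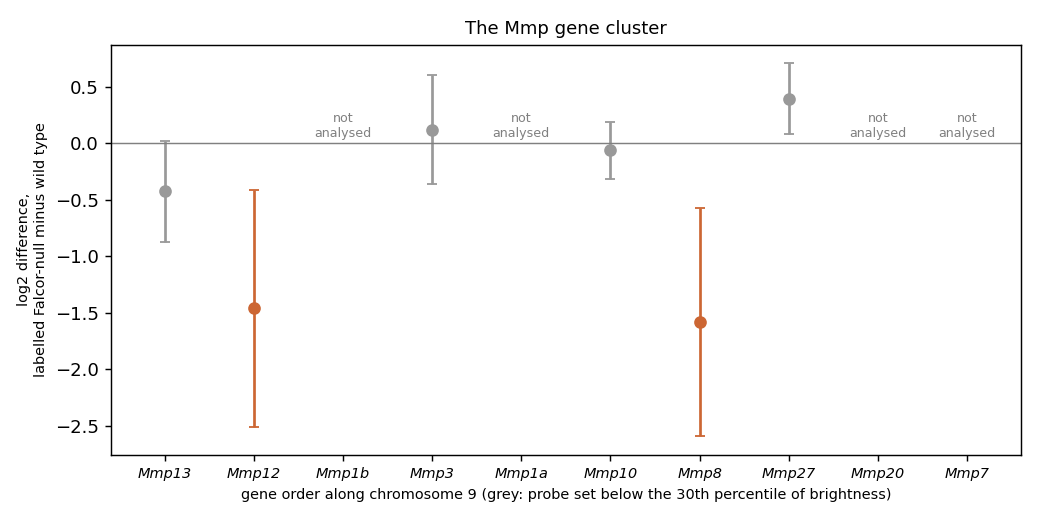
Log2 difference (the arrays labelled Falcor-null minus wild type, vertical axis) with its 95% interval for the measured genes of the Mmp row, in their order along chromosome 9; grey points are dim probe sets. Mmp12 (-1.46) and Mmp8 (-1.58) stand well below 0, while Mmp27 is at 0.39.

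The bases before the start of the 6 measured genes of this row are shown because Mmp8 and Mmp12, the members with the most negative differences, both lie in it, with Adam8 and Adamts1, the members with the smallest p in each direction, beside them. Each is the 250 bases upstream of a RefSeq transcript start (GRCm38.p6), 5′ to 3′ on the gene's own strand, and Mmp12 has 2 annotated starts. Capitals mark 3 motifs, chosen after the values were seen: TGANTCA, the site of AP-1 (Fos and Jun) on either strand; GAGGAAGT, a site of the myeloid factor PU.1 on either strand; and TATAAA, the TATA box, on the gene's strand. They do not overlap one another in these sequences.
Mmp13 (chr9:7272264-7272513, + strand): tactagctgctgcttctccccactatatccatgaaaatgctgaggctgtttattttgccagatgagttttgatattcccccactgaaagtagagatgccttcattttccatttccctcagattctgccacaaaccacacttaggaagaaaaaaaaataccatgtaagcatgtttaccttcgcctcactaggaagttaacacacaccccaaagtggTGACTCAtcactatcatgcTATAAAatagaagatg
Mmp12 start 1 (chr9:7344147-7344396, + strand): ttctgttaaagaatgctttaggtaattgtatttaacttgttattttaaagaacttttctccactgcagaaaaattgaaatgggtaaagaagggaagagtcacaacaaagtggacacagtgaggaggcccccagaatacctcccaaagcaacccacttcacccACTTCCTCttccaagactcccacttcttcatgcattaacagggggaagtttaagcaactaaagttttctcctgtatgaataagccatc
Mmp12 start 2 (chr9:7347124-7347373, + strand): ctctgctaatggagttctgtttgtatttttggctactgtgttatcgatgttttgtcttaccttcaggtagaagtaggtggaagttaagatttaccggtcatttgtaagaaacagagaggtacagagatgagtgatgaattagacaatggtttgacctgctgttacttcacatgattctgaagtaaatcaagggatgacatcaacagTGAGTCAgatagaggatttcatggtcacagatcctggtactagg
Mmp3 (chr9:7445572-7445821, + strand): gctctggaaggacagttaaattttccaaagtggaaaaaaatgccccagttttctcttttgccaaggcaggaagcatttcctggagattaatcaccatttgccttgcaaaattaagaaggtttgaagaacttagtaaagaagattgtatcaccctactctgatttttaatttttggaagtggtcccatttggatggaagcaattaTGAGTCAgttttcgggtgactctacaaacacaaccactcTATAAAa
Mmp10 (chr9:7502092-7502341, + strand): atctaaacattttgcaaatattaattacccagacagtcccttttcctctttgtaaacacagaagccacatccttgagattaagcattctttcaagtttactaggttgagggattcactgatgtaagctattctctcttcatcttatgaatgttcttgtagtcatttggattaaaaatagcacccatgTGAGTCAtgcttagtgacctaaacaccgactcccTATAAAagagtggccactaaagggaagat
Mmp8 (chr9:7558179-7558428, + strand): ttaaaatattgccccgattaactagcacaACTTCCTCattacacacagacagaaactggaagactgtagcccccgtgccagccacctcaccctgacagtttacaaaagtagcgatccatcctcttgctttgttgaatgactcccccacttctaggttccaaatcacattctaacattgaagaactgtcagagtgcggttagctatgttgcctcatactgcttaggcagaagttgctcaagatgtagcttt
Mmp27 (chr9:7571146-7571395, + strand): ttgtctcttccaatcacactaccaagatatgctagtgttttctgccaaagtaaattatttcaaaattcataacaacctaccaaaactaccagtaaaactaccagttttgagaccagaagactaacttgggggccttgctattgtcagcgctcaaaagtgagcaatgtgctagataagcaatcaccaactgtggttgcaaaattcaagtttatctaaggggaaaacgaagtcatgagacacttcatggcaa
Adam8 (chr7:139992563-139992812, - strand): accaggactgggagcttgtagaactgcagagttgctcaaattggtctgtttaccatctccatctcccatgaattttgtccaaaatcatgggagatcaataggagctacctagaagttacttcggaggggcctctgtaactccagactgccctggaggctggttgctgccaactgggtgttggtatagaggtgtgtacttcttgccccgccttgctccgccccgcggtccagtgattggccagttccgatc
Adamts1 (chr16:85803114-85803363, - strand): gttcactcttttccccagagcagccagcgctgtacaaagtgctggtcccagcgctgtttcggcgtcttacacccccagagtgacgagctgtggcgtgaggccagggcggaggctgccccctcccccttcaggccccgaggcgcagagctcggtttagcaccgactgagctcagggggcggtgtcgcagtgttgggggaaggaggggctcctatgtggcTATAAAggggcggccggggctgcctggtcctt

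The AP-1 letters begin 35 bases before the start in Mmp13, 46 in Mmp3, 63 in Mmp10 and 44 before the second start of Mmp12, and they are not in the windows of Mmp8 or Mmp27. The PU.1 letters are in the windows of Mmp8, 221 bases before the start, and of Mmp12, 88 bases before its first start. Of the 37 members with a promoter entry, 5 hold the AP-1 letters (the 4 above and Adam19), 2 hold the PU.1 letters and 5 hold TATAAA. Counted by window, as some members have several starts, these are 5, 2 and 5 of 41 windows. Among all 32851 windows of the same length, 6.75% hold the AP-1 letters, 2.44% the PU.1 letters and 7.59% TATAAA. The Mmp row is poor in CG dinucleotides, with 0 to 4 per window, where the median is 14 over the 41 windows of members and 6 over all windows. Adamts1 has 15, and its TATAAA begins 32 bases before the start. TATAAA begins 29 bases before the start in Mmp10, 16 in Mmp13 and 7 in Mmp3. All these distances rest on the annotated starts, which were not tested. These matches describe letters, and both genes with the PU.1 letters were among those picked out by their values.

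The remaining Mmp genes had overlapping groups by the probe set used for each gene, and none passed the test. Mmp19, named after its values were seen, read 8.15, 8.47 and 9.24 in wild-type lung and 7.91, 8.64 and 8.25 under the Falcor-null label (difference -0.35, limma adjusted p 0.659). Mmp2, the gelatinase of mesenchymal cells, read 9.49, 9.83 and 9.52 in wild-type lung and 9.89, 9.94 and 9.62 under the Falcor-null label (difference 0.20, 95% interval -0.09 to 0.50, limma adjusted p 0.533). Mmp14, the membrane metalloproteinase that activates Mmp2, differed by -0.05 (95% interval -0.40 to 0.30, limma adjusted p 0.922). Mmp11, a stromelysin of stromal cells, read 7.52, 7.21 and 7.20 against 7.54, 7.50 and 7.52 (difference 0.21, limma adjusted p 0.423). Its second, dimmer probe set gave 0.21 as well, with groups that did not overlap. In all, the 11 secreted Mmp genes ran from -1.58 to 0.39 and the 5 membrane-type ones from -0.72 to 0.14.

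Among the inhibitors, Timp1, which is induced by inflammation and injury, read 6.56, 7.07 and 6.93 in wild-type lung and 6.62, 6.65 and 6.01 under the Falcor-null label. Its groups overlapped, and the difference was -0.43 (95% interval -0.90 to 0.04, limma adjusted p 0.406), or -0.22 without the third array labelled Falcor-null. Timp4 read 5.30, 5.35 and 5.22 against 5.21, 5.09 and 4.99, without overlap but from a dim probe set (difference -0.19, limma adjusted p 0.383). Timp2, which also takes part in the activation of Mmp2, differed by 0.11 (95% interval -0.09 to 0.31, limma adjusted p 0.631). Timp3, which binds to the matrix and also inhibits Adam17 and the aggrecanases, differed by 0.17 (95% interval -0.06 to 0.40, limma adjusted p 0.507). The inhibitors thus divided evenly in sign, and their intervals all include 0.

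The proteoglycan-cutting Adamts enzymes were higher in 6 of 7 cases, none passing, with a median difference of 0.21. Of these 7, 3 differed by less than 0.1 in size, Adamts5 (0.06), Adamts15 (0.03) and Adamts20 (-0.01), and 2 had dim probe sets. Adamts1, an aggrecanase with anti-angiogenic activity, read 8.63, 8.30 and 8.11 in wild-type lung and 8.95, 8.92 and 8.86 under the Falcor-null label. All 3 of the latter lay above all 3 of the former and close to each other (SD 0.05 against 0.27, n = 3 each). The difference was 0.56 (SE 0.13, 95% interval 0.25 to 0.87, 1.47-fold higher), with a limma adjusted p of 0.127. Without the first wild-type array it was 0.70 and passed (limma adjusted p 0.0479). Adamts9, a versican-cutting enzyme, read 8.51, 8.86 and 8.71 against 8.89, 9.42 and 9.11, also without overlap, although its nearest arrays are only 8.86 and 8.89. Its difference was 0.45 (SE 0.15, 1.36-fold higher, limma adjusted p 0.256). Adamts4, the other classical aggrecanase measured beside Adamts5, differed by 0.21 from a dim probe set (limma adjusted p 0.501).

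Adamts3, which removes the amino-terminal propeptide of procollagen and is needed to activate the lymphatic growth factor Vegfc, had the most negative difference of the Adamts enzymes. It read 5.64, 5.27 and 4.98 in wild-type lung and 4.71, 4.57 and 4.18 under the Falcor-null label, without overlap (difference -0.81, SE 0.19, 1.75-fold lower, limma adjusted p 0.130). This probe set was dim, and its signal over background is unknown. Adamts14, of the same procollagen group, differed by 0.01 by its brighter probe set and by -0.21 by its dimmer one, whose groups did not overlap. Among the 7 other Adamts enzymes 6 were higher, from -0.09 to 0.43 in all. Adamts17 read 6.76, 7.29 and 6.80 against 7.10, 7.76 and 7.27 (difference 0.43, limma adjusted p 0.412), and Adamts7, which cuts cartilage oligomeric matrix protein, differed by 0.31 (limma adjusted p 0.433). Of the 5 Adamts-like proteins, which lack the protease domain, Adamtsl2, a binding partner of fibrillin and latent TGF-beta binding protein, read 8.87, 9.03 and 8.87 against 8.99, 9.44 and 9.59 (difference 0.42, limma adjusted p 0.293). Adamtsl4, likewise a fibrillin-binding protein, had the opposite sign (8.43, 8.25 and 8.10 against 7.68, 8.05 and 8.12; difference -0.31, limma adjusted p 0.388).

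The widely expressed Adam sheddases showed small differences with narrow spread. Adam10, which cleaves Notch and cadherins, read 9.56, 9.66 and 9.64 in wild-type lung and 9.82, 9.86 and 9.82 under the Falcor-null label. Adam15, of epithelial and endothelial cells, read 8.91, 8.90 and 9.03 against 9.22, 9.21 and 9.22. Both were higher on every array labelled Falcor-null than on any wild-type array, by 0.21 (SE 0.07, 1.16-fold, limma adjusted p 0.257) and 0.27 (SE 0.07, 1.20-fold, limma adjusted p 0.180). The dimmer probe set of Adam15 gave 0.12 with overlapping groups. Adam9 differed by 0.10 (limma adjusted p 0.721). The other 5 somatic Adam proteinases, Adam12, Adam17, Adam19, Adam28 and Adam33, had overlapping groups, Adam17 being the enzyme that releases tumour necrosis factor. Adam23, a neuronal protein without an active protease site, read 7.49, 6.67 and 6.79 against 6.47, 6.24 and 6.89 (difference -0.45, limma adjusted p 0.467), and its difference was -0.20 without the first wild-type array.

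The 4 Adam genes of testis all had dim probe sets. Adam3, needed for sperm to bind the egg coat, read 4.94, 5.14 and 5.52 in wild-type lung and 4.90, 4.73 and 4.90 under the Falcor-null label (difference -0.36, limma adjusted p 0.350). Adam4 differed by 0.17 (limma adjusted p 0.472).

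The lysyl oxidases went in both directions. Lox read 9.31, 9.39 and 9.29 in wild-type lung and 8.63, 9.29 and 8.96 under the Falcor-null label, where the highest of the latter equals the lowest of the former to 2 decimals. Its difference was -0.37 (SE 0.16, 95% interval -0.73 to -0.01, limma adjusted p 0.355), and -0.21 without the first array labelled Falcor-null. Loxl1, the family member tied to elastic fibres, read 8.87, 9.33 and 8.99 against 9.39, 9.64 and 9.29, with overlap of the second wild-type array and the third one labelled Falcor-null. Its difference was 0.38 (SE 0.14, 95% interval 0.04 to 0.71, limma adjusted p 0.305). Loxl4 (0.18, limma adjusted p 0.531) and Loxl3 (0.11, limma adjusted p 0.709) lay on the same side as Loxl1. Their differences were 0.086 for Loxl4 without the first wild-type array and 0.018 for Loxl3 without the second array labelled Falcor-null. Loxl2 was not analysed here, since its probe sets carry a second gene symbol.

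**Figure D5:**
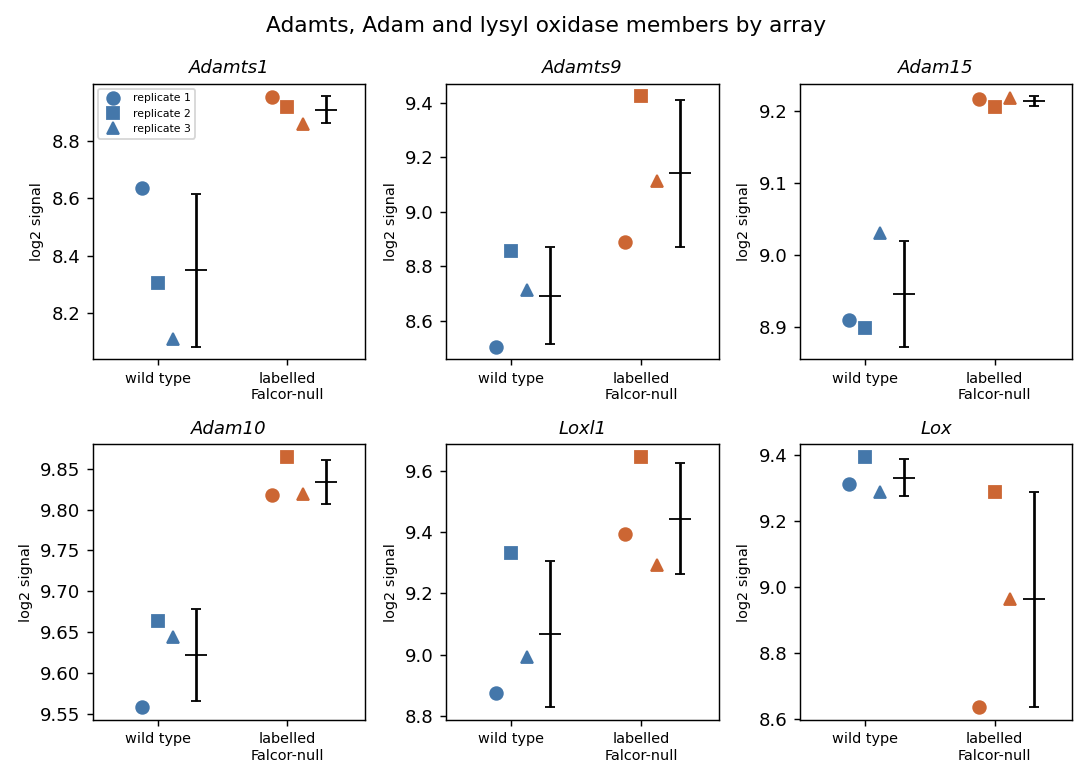
Log2 signal (vertical axis) of Adamts1, Adamts9, Adam15, Adam10, Loxl1 and Lox on each array, by group, with symbols for the replicate number and a bar for the mean and SD (n = 3). Adamts1, Adamts9, Adam15 and Adam10 are higher on all 3 of the arrays labelled Falcor-null, Loxl1 overlaps, and Lox is lower, with a wide spread (SD 0.33) under the Falcor-null label.

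Markers of the mesenchymal and vascular cells that make many Adamts and lysyl oxidase genes were higher on the same arrays. Fibroblast markers were higher in 11 of 12 cases, with a median difference of 0.27, none passing and none dim. Their average was 9.73 to 9.93 in wild-type lung and 10.16, 10.09 and 10.003 under the Falcor-null label, so the nearest arrays of the 2 groups lay close together. Endothelial markers were higher in 10 of 10 cases (median difference 0.21, none passing, none dim), averaging 10.3 on each wild-type array and 10.5 to 10.7 under the Falcor-null label. All 8 smooth muscle markers were higher (median difference 0.18, none dim), their average running from 8.36 to 8.47 in wild-type lung and from 8.48 to 8.84 under the Falcor-null label, and Tagln, an actin-binding protein of smooth muscle, passed (0.55, limma adjusted p 0.0407). Mesothelial markers were higher in 5 of 6 cases (median difference 0.17), and cartilage markers in 6 of 8 (0.10, 5 dim). Alveolar epithelial markers were higher in 6 of 10 cases (0.05) and airway epithelial markers in 6 of 9 (0.02). None of the markers in these 4 lists passed. The part of cell composition in the Adamts1, Adamts9, Adamtsl2 and Loxl1 differences was not tested.

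Genes that work with these enzymes, outside the members, were read from 4 lists, and none of their genes passed the test in either direction. In the elastic fibre and latent TGF-beta binding list, 12 of 14 were higher, with a median difference of 0.23. Ltbp1 (0.28, limma adjusted p 0.218) and Ltbp3 (0.27, limma adjusted p 0.243) were higher, and Fbln2, a fibulin, gave 0.65 (limma adjusted p 0.275). Ltbp2 stood against them, at 8.75, 9.15 and 8.65 in wild-type lung and 8.45, 8.02 and 8.50 under the Falcor-null label (-0.53, limma adjusted p 0.234), without overlap. Elastin itself (Eln) varied more between arrays of a group than between groups, at 8.97, 10.08 and 9.72 against 9.03, 10.36 and 10.14.

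Proteoglycans and their link proteins were higher in 5 of 8 cases, with Bgn at 0.15, Vcan, a substrate of Adamts1 and Adamts9, at 0.29, Lum at 0.36 and Fmod at 0.17 (limma adjusted p from 0.502 to 0.647). Activators and other inhibitors were higher in 11 of 19 cases, with a median of 0.03. The procollagen C-proteinase enhancers Pcolce (0.30, limma adjusted p 0.219) and Pcolce2 (0.33, limma adjusted p 0.236) did not overlap between groups, and neither did the membrane serine protease St14 (-0.23, limma adjusted p 0.324). The urokinase receptor Plaur gave -0.29 (limma adjusted p 0.446). Among partners and substrates of the Adam proteins, 10 of 14 were higher, with a median of 0.17. Lgi2, a secreted relative of the Adam22 ligand Lgi1, gave -0.70 (limma adjusted p 0.133) and its relative Lgi3 0.37 (limma adjusted p 0.166), both without overlap. The Adam17 substrates Tgfa and Tnf had opposite signs, at 0.23 (limma adjusted p 0.236) and -0.71 (limma adjusted p 0.256).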

How the data were processed

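RNA from whole lung was hybridised to biotin-target arrays, per the labels. Each deposited column holds 1 array's log2 signals, made with oligo and RMA according to the tool names in the submitters' processing notes, which also list limma. RMA's quantile step removes a shift shared by most genes. Differences near the ends of an array's scale can be compressed. Row filters and genome build are not given in the sources used here. Of 24173 probe sets, 17476 had 1 symbol in the platform annotation. The highest-mean probe set stood for a gene, which left 16537 genes, and 5 members had several. RefSeq lists 90 protein-coding genes whose symbols meet the rule, and those not measured were not analysed here.

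The groups were compared in limma 3.58.1 (R 4.3.3), two-sided, without covariates, with Benjamini-Hochberg adjustment over all genes, and the code was tested on simulated data. An exact permutation test of 3 against 3 arrays cannot go below 0.1. Arrays differed from each other (Pearson r at most 0.986), so none was a duplicate. The members and lists were chosen with earlier results of these data known. Members named were every Timp and lysyl oxidase, the 25 with the smallest p, the 10 with the highest mean, the 5 largest differences either way among brighter probe sets and those without overlap that differed by over 0.5; any other was named for its family, and named list genes are up to 4 with the smallest p, with Eln and the named markers picked after their values were seen. Promoters were read from a RefSeq table. Figures were drawn with matplotlib 3.10.9.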

Additional observations from a re-analysis of the deposited data

How the results depend on the processing

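No member passed under the replicate block, array-median centring, a second quantile normalization, an intensity trend, robust variance, array weights, the filter on dim probe sets, averaged or all probe sets. At an adjusted p of 0.1, 1 member passed (Adam8). Leaving out each array in turn gave 0 to 1 members (Adamts1 without wild type replicate 1) and 18 to 89 of all genes, against 92. The count over all genes was 171 with all probe sets tested and 280 at an adjusted p of 0.1. Of 472 values of named members under alternatives, 469 kept their direction and side of the threshold. Much of this was fixed in advance. The replicate block, intensity trend, robust variance and dim filter leave each difference as it was, and no named member passed in the main fit. The count therefore says little about how stable the differences are. Mmp14 ran from -0.17 to 0.0903 as arrays were left out, turning higher without wild type replicate 2 and, at 0.03, without Falcor-null replicate 1. The following counts were added after the data were seen. As arrays were left out, 7 to 11 of 16 Mmp genes were lower and 10 to 13 of 16 Adamts proteinases were higher. In the same fits 12 to 18 members had an unadjusted p under 0.05 in limma, beside 10.8% to 13.4% of all genes.

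With the replicate numbers as a block, 0 members and 32 genes passed in limma. In that fit 16 members had an unadjusted p under 0.05 in limma, beside 12.6% of all genes. Same-numbered arrays did not deviate together over all probe sets (correlations -0.02, 0.01 and -0.04). These correlations cannot exclude a pairing that moves only some genes, so whether the numbers pair the samples is unknown. The cause of the shifts in counts was not tested. Signal over background is unknown for the 18 members with dim probe sets.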
